A study of Mus musculus with 12 samples.

Results

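The genes of glucose transport, glycolysis, lactate and glycogen were followed after loss of Med30 in mouse hearts. Med30 encodes a subunit of Mediator, the complex that links transcription factors to RNA polymerase II. The 32 members were taken from a list of 2 glucose transporters, 20 genes of glycolysis and its control from hexokinase to pyruvate kinase, 4 genes of lactate dehydrogenases and carriers and 6 genes of pyruvate dehydrogenase kinases and glycogen metabolism, and all 32 were found among the 20775 genes listed by symbol.

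The embryonic comparison, at E10.5, used whole hearts with the genotype Tnnt-Cre; Med30 f/f (cKO, n = 3), in which the cardiac troponin T promoter drives Cre, and littermate hearts that were Med30 f/f without Cre (Ctrl, n = 3). The adult comparison used isolated cardiomyocytes with the genotype αMHC-MerCreMer; Med30 f/f (icKO, n = 3), in which the α myosin heavy chain promoter drives a tamoxifen-activated Cre, and cardiomyocytes that were Med30 f/f without Cre (Ctrl, n = 3), taken 4 weeks after tamoxifen at an age of 3 months. All mice were labelled C57BL/6, and every group carried the floxed allele, which came from a single ES-cell clone and has loxP sites around exon 1. The labels call the Ctrl samples wild type, and since Ctrl mice lacked Cre, an effect of Cre cannot be told apart from the loss of Med30. Whether each sample came from a single heart was not given in the sources used here, so p-values measure the spread between these samples.

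A heart cell takes up glucose through the transporters of the Slc2a family. Hexokinase traps it as glucose 6-phosphate, and phosphofructokinase commits it to glycolysis, which ends in pyruvate. Pyruvate is either reduced to lactate, which leaves through monocarboxylate transporters, or oxidised by pyruvate dehydrogenase, which the pyruvate dehydrogenase kinases inhibit. Surplus glucose is stored as glycogen by glycogen synthase and released by glycogen phosphorylase. Most steps have several isoenzymes encoded by separate genes, and the embryonic heart relies on glycolysis more than the adult heart, which burns mainly fatty acids.

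Med30 itself was at 10.6, 13.3 and 11.3 RPKM (reads per kilobase of gene, scaled by the authors to the reads of the library) in E10.5 Ctrl and at 1.376, 2.023 and 1.004 RPKM in cKO. In adult cardiomyocytes it was at 7.66, 7.45 and 7.66 RPKM in Ctrl and at 3.81, 3.16 and 1.82 RPKM in icKO. The groups did not overlap at either stage, and the adjusted p of limma was 0.00037 at E10.5 and 0.00040 at 4 weeks. The reads behind each library, found from the spacing of low RPKM, lay between 11.98 and 20 M, so that 3 reads on a 2 kb transcript equal 0.0750 to 0.125 RPKM, which covers counting error only.

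RPKM were fitted as deposited with limma on log2(RPKM + 0.1), in genes with a mean above 1 RPKM. A gene passed the test at an adjusted p (Benjamini-Hochberg over all genes tested) under 0.05 and was called when its log2 fold change also lay beyond 1. The scale between samples matters here. Over all genes tested, the log2 fold change had a median of −0.13 at E10.5 and 0.57 at 4 weeks, and became −0.01 and 0.01 after median-ratio scaling, which sets the typical gene close to no change. In adult Ctrl the 20 most abundant genes took 24.8% to 25.4% of all summed RPKM, against 11.5% to 13.1% in icKO. For this reason values after median-ratio scaling stand beside the deposited ones where they lead to another call. Isoform shares are ratios within a sample, so a factor per sample does not alter them, although quantile normalization can.

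The proximal promoters of 5 members are shown as examples of the differences described below. Members with larger changes than Hk2, such as Pfkm, Pfkfb1, Pdk2 and Pygb, also had a promoter entry and are not shown. Slc2a1 and Pgk1 passed the test at both stages in opposite directions, Pfkp and Slc16a3 had the largest adult rises, and Hk2 fell where its partner Hk1 rose. Each stretch starts 250 bases before the RefSeq start of the gene and ends at that start, or before an earlier GENCODE start. Capitals mark ACGTG and GCGTG on either strand, the letters of the core site bound by hypoxia-inducible factors, of which ACGTG is also part of the E-box CACGTG. The sequences come from RefSeq on GRCm38.p6, at chr4:119108495-119108710 (+ strand) for Slc2a1, chr6:82774455-82774704 (− strand) for Hk2, chr13:6648778-6649021 (− strand) for Pfkp, chrX:106186850-106187099 (+ strand) for Pgk1 and chr11:120948817-120949052 (+ strand) for Slc16a3.
Slc2a1: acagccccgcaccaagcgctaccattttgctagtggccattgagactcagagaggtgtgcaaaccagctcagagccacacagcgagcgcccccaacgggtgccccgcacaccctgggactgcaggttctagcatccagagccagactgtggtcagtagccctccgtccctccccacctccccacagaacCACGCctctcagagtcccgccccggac
Hk2: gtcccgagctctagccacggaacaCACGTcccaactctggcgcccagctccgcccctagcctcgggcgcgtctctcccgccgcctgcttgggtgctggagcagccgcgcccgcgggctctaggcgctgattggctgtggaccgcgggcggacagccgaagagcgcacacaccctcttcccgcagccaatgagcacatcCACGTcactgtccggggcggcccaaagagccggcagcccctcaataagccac
Pfkp: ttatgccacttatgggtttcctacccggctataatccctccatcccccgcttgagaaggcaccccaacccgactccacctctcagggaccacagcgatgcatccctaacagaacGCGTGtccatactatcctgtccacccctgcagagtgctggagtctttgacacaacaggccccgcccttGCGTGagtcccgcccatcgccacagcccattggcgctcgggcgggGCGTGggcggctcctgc
Pgk1: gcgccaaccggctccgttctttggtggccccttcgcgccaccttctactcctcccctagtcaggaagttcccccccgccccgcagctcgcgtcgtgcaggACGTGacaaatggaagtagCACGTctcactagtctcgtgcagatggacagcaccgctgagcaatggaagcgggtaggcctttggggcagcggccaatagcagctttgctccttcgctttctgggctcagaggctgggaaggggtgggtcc
Slc16a3: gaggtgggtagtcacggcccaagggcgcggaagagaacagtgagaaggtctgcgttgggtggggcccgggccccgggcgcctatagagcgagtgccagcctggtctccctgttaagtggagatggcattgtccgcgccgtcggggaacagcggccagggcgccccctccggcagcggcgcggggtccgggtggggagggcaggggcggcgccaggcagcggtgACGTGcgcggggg

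Of the 32 members 31 had a promoter entry, and Slc2a4 had none. ACGTG was found within 250 bases before the start in 13 of 31 members (41.9%) and in 16.6% of the 32851 promoter windows of that length. GCGTG was found in 16 of 31 members (51.6%) and in 28.2% of all windows, and CACGTG in 5 of 31 members (16.1%) and in 6.02% of all windows. Among members that passed the adult test under all 4 scalings compared, ACGTG was in 5 of the 8 that rose and in 5 of the 9 that fell and had an entry. These counts use the full 250 bases. The match of Slc2a1, among the 8, is not wholly inside the stretch shown, which stops before an earlier GENCODE start. These are matches of letters, and whether any factor binds there was not tested.

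At E10.5 the glycolytic genes as a group sat lower in cKO hearts. The 32 members summed to 2913, 2945 and 2857 RPKM in Ctrl and to 2094, 1996 and 2401 RPKM in cKO, a mean that was 25.5% lower. The groups did not overlap, and the exact permutation test gave a two-sided p of 0.1, the smallest that 3 samples against 3 allow. As a part of all summed RPKM in a sample, the members took 1.48% to 1.85% in Ctrl and 1.35% to 1.47% in cKO, with values of the groups almost touching. Of the 31 members tested, 28 had a log2 fold change below 0 as deposited and 27 after median-ratio scaling, and their median was −0.33 as deposited against −0.13 over all genes, and −0.21 against −0.01 after scaling. After quantile normalization 22 were below 0, with a median of −0.18 against −0.005 over all genes. With scaling without the 20 most abundant genes 23 were below 0, with a median of −0.15 against 0.04. The share of all genes below 0 was not counted.

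Few of these E10.5 differences passed on their own. With limma, 3 of 31 members (9.68%) were lower at an adjusted p under 0.05, where 3.45% of the 10885 genes tested were lower, and 1 of 31 (3.23%) was called lower, against 0.542% of all genes. None was higher, where 0.864% of all genes passed and 0.239% were called higher, and at an unadjusted p under 0.05 the members numbered 18 lower and 0 higher, against 19.2% and 4.39% of all genes. After median-ratio scaling that count was 14 lower and 2 higher, against 11.8% and 11.5% of all genes. At an adjusted p under 0.05 median-ratio scaling again gave 3 of 31 lower and none higher, with 2.56% of all genes lower and 2.49% higher. Quantile normalization and scaling without the 20 most abundant genes each gave 2 of 31 lower (6.45%), with 2.38% and 1.93% of all genes lower. Neither gave a member that was higher, where 307 and 409 of all 10885 genes were. The groups did not overlap in 17 members that were lower in cKO (54.8%, all genes 22.6%) and in 1 that was higher (3.23%, all genes 6.50%). These counts moved with single libraries, as did those of all genes. Without Ctrl replicate 3, 0 members passed, without cKO replicate 1 or cKO replicate 2 only 1 did, and without cKO replicate 3 there were 7, while the share of all genes that were lower was 0.175% without Ctrl replicate 3, 0.450% without cKO replicate 1, 0.358% without cKO replicate 2 and 5.35% without cKO replicate 3. Called members numbered 2 without Ctrl replicate 2 or cKO replicate 3 and 0 without Ctrl replicate 3. Over all genes, 52, 102 and 18 were called lower in these fits, in that order, of 10871 to 10888 tested.

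Markers of cell types were read beside these values, since a whole heart holds several. The 7 erythroid markers summed to 248 to 795 RPKM in Ctrl and to 345 to 2102 RPKM in cKO, with the highest value in cKO replicate 1. The 8 cardiomyocyte markers summed to 1842 to 2688 RPKM in Ctrl and to 1524 to 1941 RPKM in cKO, and the fibroblast and endothelial sums overlapped as these do. Of the cardiomyocyte markers only Myh7 (410.0 to 609.2 RPKM in Ctrl, 160.6 to 242.1 RPKM in cKO) and Ryr2 (38.1 to 41.1 and 31.5 to 33.0 RPKM) did not overlap. Their means were lower in cKO for 6 of the 8 and higher for 2, Actn2 and Ttn. The 5 mural markers summed to 448 to 544 RPKM in Ctrl and 557.8 to 708.5 RPKM in cKO, without overlap. This sum was mostly Acta2 (346.4 to 378.3 RPKM in Ctrl, 422.5 to 501.9 RPKM in cKO). Tagln, Pdgfrb and Rgs5 overlapped, and Myh11 was below 1 RPKM in every sample. The 5 of macrophages and leukocytes summed to 8.51 to 11.2 and 4.87 to 6.76 RPKM, also without overlap. Of these only Lyz2 did not overlap (6.43 to 8.92 and 3.02 to 4.96 RPKM). The part of these cell types in the result was not tested, and in bulk samples fewer cells of a type and less RNA per cell cannot be told apart.

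In adult cardiomyocytes the summed members hardly moved as deposited, while the isoenzymes behind the sum changed places. The 32 members summed to 5068, 5126 and 5142 RPKM in Ctrl and to 5020, 4818 and 5105 RPKM in icKO, with overlapping groups and an exact two-sided permutation p of 0.2. Underneath, 12 of 29 members tested (41.4%) were higher and 11 (37.9%) lower at an adjusted p under 0.05 in limma, where 60.6% of the 9517 genes tested were higher and 18.1% lower. Called members numbered 6 higher (20.7%, all genes 28.0%) and 6 lower (20.7%, all genes 8.45%). After median-ratio scaling 8 members (27.6%) were higher and 17 (58.6%) lower, against 33.6% and 34.6% of all genes. As deposited, the groups did not overlap in 12 members higher and 11 lower in icKO. These were 41.4% and 37.9% of the members, where 62.0% and 18.9% of all genes did so. The sum of the members depends on the scale as well. Median-ratio scaling divides Ctrl by 0.817 to 0.827 and icKO by 1.17 to 1.24, which puts every icKO sum below those of Ctrl. As a part of all summed RPKM in a sample, the members took 2.21% to 2.28% in Ctrl and 2.02% to 2.31% in icKO.

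Under all 4 scalings compared, the same 8 members rose, Slc2a1, Hk1, Pfkp, Pgk1, Pgam1, Eno1, Ldha and Slc16a3, and the same 10 fell, Slc2a4, Hk2, Pfkm, Pfkfb1, Pfkfb2, Pgam2, Ldhb, Pdk2, Gys1 and Pygb. These were 27.6% and 34.5% of the 29 members tested, where 33.5% of all genes rose and 17.9% fell under all 4. These adult libraries also differed in cell type markers. All 7 fibroblast markers were higher in icKO, with sums of 4.81 to 8.16 RPKM in Ctrl and 59.4 to 85.6 RPKM in icKO, and Tcf21 was at 0 in 2 of the 3 Ctrl samples. All 5 endothelial markers had a higher mean (sums of 6.94 to 18.2 RPKM in Ctrl, 18.5 to 29.6 RPKM in icKO), but Cdh5, Kdr and Tek overlapped. So had all 5 of macrophages and leukocytes (1.78 to 2.71 and 3.60 to 6.50 RPKM), but Ptprc and Lyz2 overlapped. These 2 sums overlap after median-ratio scaling, and as deposited 62.0% of all genes were higher without overlap. The mural sums overlapped but were mostly Acta2 (31.9 to 63.5 and 27.6 to 42.7 RPKM). Of the 5 mural markers 4 had a higher mean in icKO, and Myh11, Tagln and Pdgfrb did not overlap. The 8 cardiomyocyte markers summed to 11898 to 12562 RPKM in Ctrl and 4490 to 5326 RPKM in icKO, with 2 of the 8, Actn2 and Nkx2-5, higher in icKO. The part of these cells in the changes below was not tested.

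**Figure D1:**
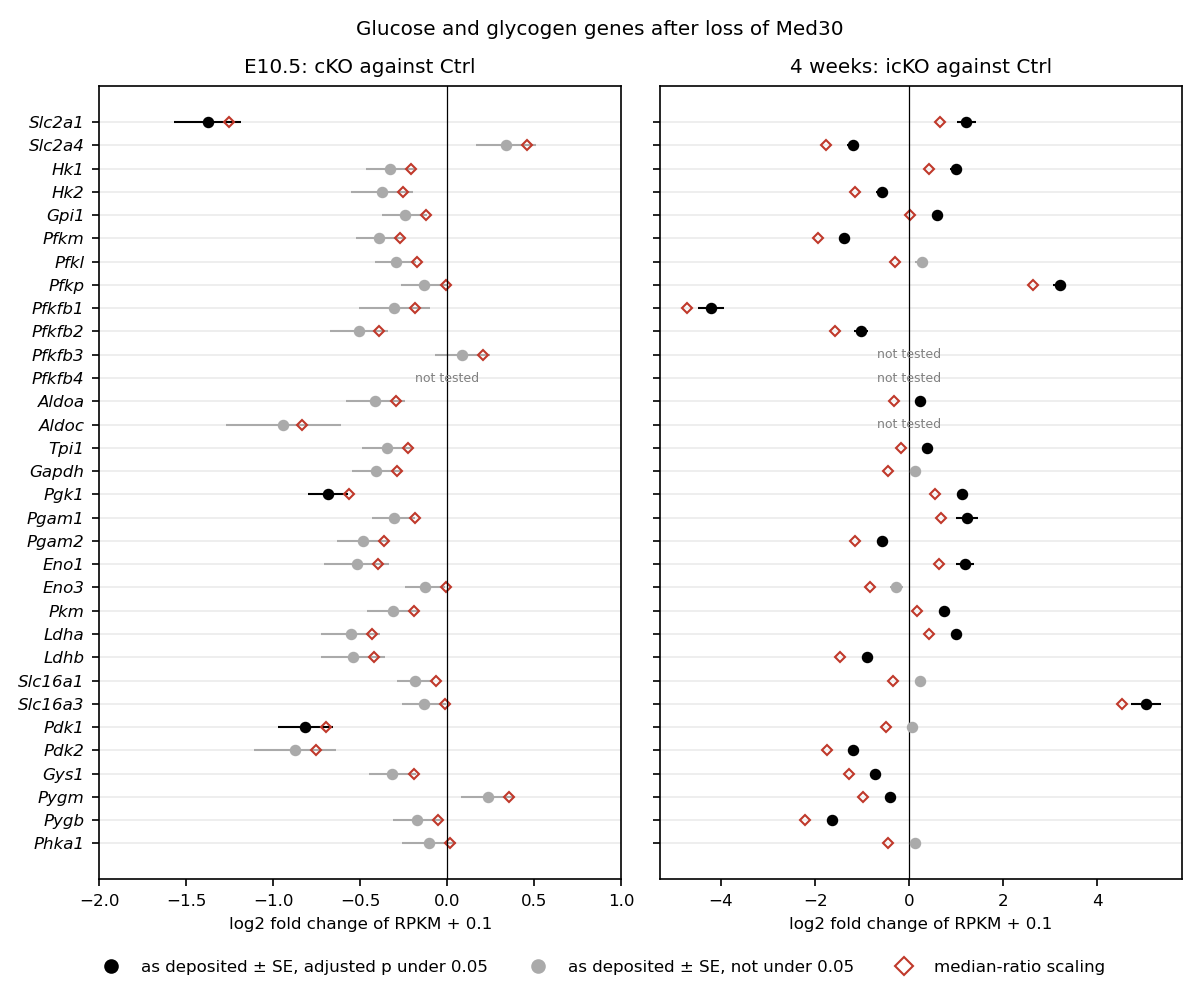
Log2 fold changes of RPKM + 0.1 for the 32 members (rows, in order of their step) at E10.5 (left, cKO against Ctrl) and 4 weeks (right, icKO against Ctrl), n = 3 per group. Points with bars are RPKM as deposited ± SE, black at an adjusted p under 0.05, and open diamonds are values after median-ratio scaling; nearly all E10.5 points lie below 0, while the adult points spread from −4.21 for Pfkfb1 to 5.03 for Slc16a3.

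Of the glucose transporters, Slc2a1 changed in opposite directions at the 2 stages. It encodes GLUT1, the transporter of basal and embryonic glucose uptake. At E10.5 it was at 98.7, 139.5 and 112.7 RPKM in Ctrl and at 43.0, 35.5 and 57.7 RPKM in cKO. All 3 cKO values were lower than any of Ctrl, and Slc2a1 fell 2.58-fold (log2 fold change −1.38 ± 0.19 SE, adjusted p = 0.011 in limma; −1.26, adjusted p = 0.013 after median-ratio scaling). It was the only member called at this stage, and its adjusted p was 0.061 without Ctrl replicate 3. In adult cardiomyocytes Slc2a1 was low, at 4.56, 4.42 and 2.91 RPKM in Ctrl, and was at 11.98, 8.34 and 7.72 RPKM in icKO. Every icKO sample lay above every Ctrl sample, a 2.36-fold rise (log2 fold change 1.22 ± 0.21, adjusted p = 0.00057; 0.66, adjusted p = 0.018 after median-ratio scaling).

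Slc2a4 encodes GLUT4, the insulin-responsive transporter of muscle and fat. In adult Ctrl it was at 136.6, 141.7 and 125.4 RPKM, and in icKO at 59.9, 49.6 and 66.7 RPKM. The groups were well apart, and Slc2a4 fell 2.29-fold (log2 fold change −1.20 ± 0.11, adjusted p = 1.2e-05; −1.77 after median-ratio scaling). At E10.5 it was a minor transcript, at 3.23, 2.32 and 3.16 RPKM in Ctrl and 3.90, 3.76 and 3.35 RPKM in cKO, with no overlap but an adjusted p of 0.27.

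At the hexokinase step, Hk1 is the broadly expressed enzyme and Hk2 the form that predominates in insulin-sensitive muscle. In adult cardiomyocytes Hk1 rose 1.99-fold, from 32.9 to 44.6 RPKM in Ctrl to between 69.7 and 89.5 RPKM in icKO (log2 fold change 0.99 ± 0.13, adjusted p = 0.00011; 0.43, adjusted p = 0.018 after median-ratio scaling). Hk2 went the other way, from 72.0 to 78.6 RPKM in Ctrl to between 42.8 and 62.0 RPKM in icKO (−0.58 ± 0.13, adjusted p = 0.0028; −1.15 after median-ratio scaling). Gpi1, glucose phosphate isomerase, rose as deposited, from 108.7 to 112.7 RPKM to between 161.7 and 173.3 RPKM (0.59, adjusted p = 4.4e-05), but this was the size of the shift of all genes, and after median-ratio scaling it was 0.03 (adjusted p = 0.73). At E10.5 none of Hk1, Hk2 and Gpi1 passed, with log2 fold changes from −0.38 to −0.24.

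The phosphofructokinase genes showed the clearest exchange. Pfkm encodes the muscle subunit, Pfkl the liver subunit and Pfkp the platelet subunit of the tetramer. In adult Ctrl Pfkm was at 282.5, 278.0 and 288.7 RPKM, and in icKO at 107.2, 102.7 and 117.4 RPKM. Pfkm fell 2.59-fold with narrow groups (log2 fold change −1.38 ± 0.08, adjusted p = 7.4e-07; −1.94 after median-ratio scaling). Pfkp was at 10.4, 8.42 and 10.9 RPKM in Ctrl and at 108.3, 78.6 and 89.3 RPKM in icKO. Pfkp rose 9.30-fold (3.20 ± 0.14, adjusted p = 3.0e-07; 2.64 after median-ratio scaling) and thereby came within reach of Pfkm on the per-length scale. Pfkl, at 21.8 to 26.6 RPKM in Ctrl and 24.5 to 34.2 RPKM in icKO, overlapped (0.26, adjusted p = 0.099; −0.30 after median-ratio scaling).

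At E10.5 the phosphofructokinase genes were closer to each other and did not pass the test. Pfkm was at 22.8, 17.7 and 21.2 RPKM in Ctrl and 14.8, 14.2 and 17.9 RPKM in cKO (adjusted p = 0.12). Pfkp was at 29.5, 32.2 and 28.6 RPKM in Ctrl and 25.0, 24.7 and 33.4 RPKM in cKO (adjusted p = 0.59). In both genes cKO replicate 3 was the highest of the cKO samples and lay above the lowest Ctrl sample.

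The PFKFB enzymes make and degrade fructose 2,6-bisphosphate, the strongest activator of phosphofructokinase. Pfkfb1, the gene of the liver and muscle forms, was at 11.5, 11.6 and 6.87 RPKM in adult Ctrl and at 0.273, 0.483 and 0.579 RPKM in icKO. It fell 22.4-fold, the largest fall among members as deposited (log2 fold change −4.21 ± 0.27, adjusted p = 1.6e-06), a size that rests on low icKO values and was −2.90 with a pseudocount of 1. Pfkfb2, the main heart form, was at 22.8, 17.3 and 19.9 RPKM in Ctrl and at 9.40, 8.39 and 11.7 RPKM in icKO. It fell 2.04-fold (−1.02 ± 0.14, adjusted p = 0.00016; −1.58 after median-ratio scaling). Pfkfb3, the inducible form, was at 0.278 to 0.552 RPKM in Ctrl and 0.385 to 1.09 RPKM in icKO, and Pfkfb4 at 0.178 to 0.450 RPKM over the 6 samples, so neither was tested in adults.

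In E10.5 hearts no PFKFB gene passed the test. Pfkfb1 was at 3.00, 2.65 and 2.08 RPKM in Ctrl and 2.24, 2.16 and 1.76 RPKM in cKO. Pfkfb2 was at 3.35, 3.20 and 3.88 RPKM in Ctrl and 2.66, 2.15 and 2.45 RPKM in cKO, without overlap but with an adjusted p of 0.11. Pfkfb3 overlapped (adjusted p = 0.78), and Pfkfb4, at 0.449 to 1.29 RPKM, was not tested.

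**Figure D2:**
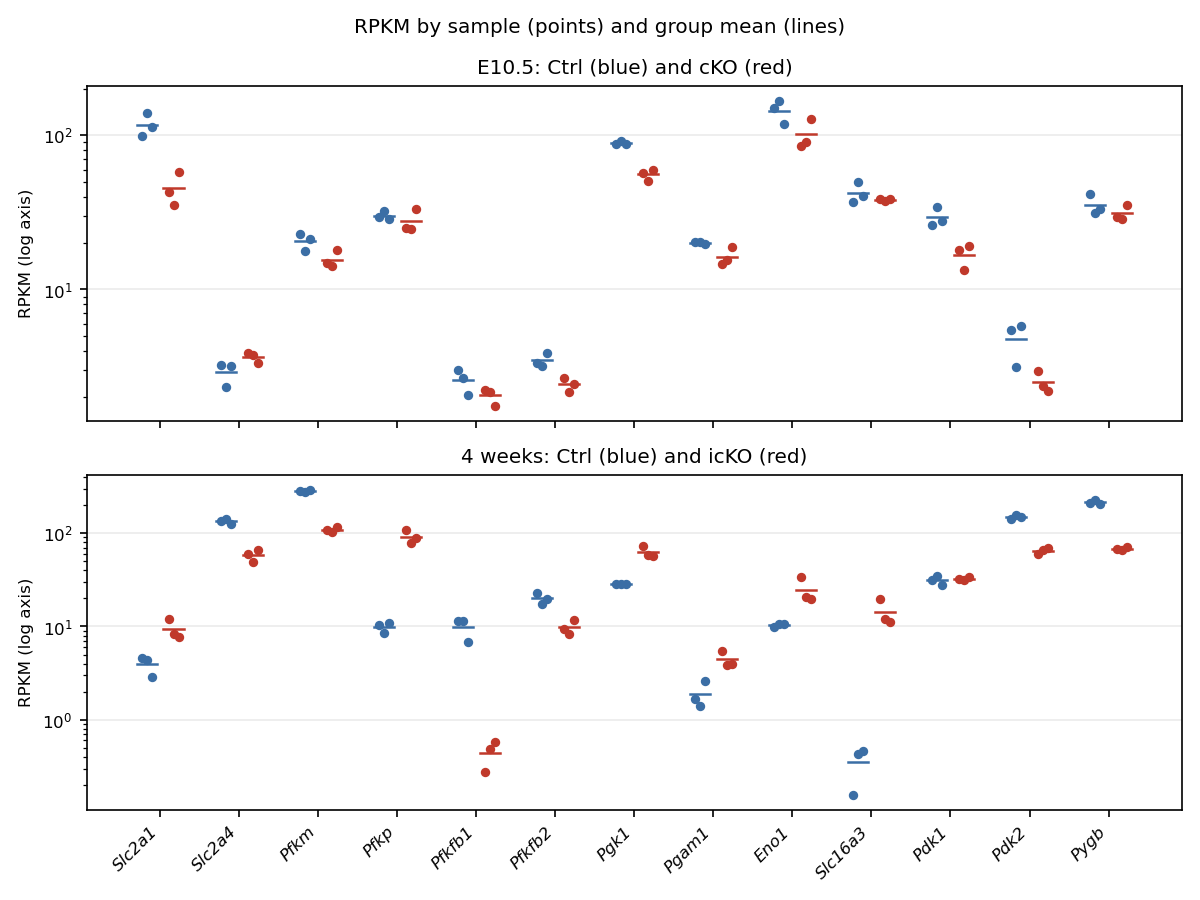
RPKM by sample on a log axis for the 12 members called at either stage and Pdk1, at E10.5 (top) and 4 weeks (bottom); blue points are Ctrl, red points cKO or icKO (n = 3 each) and lines are group means. In adults the Pfkm and Pfkp groups approach each other, Slc16a3 rises from 0.158 to 0.468 RPKM to above 11 RPKM, and at E10.5 the Slc2a1 and Pgk1 groups lie fully apart.

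In lower glycolysis, Pgk1 encodes phosphoglycerate kinase, which makes the first ATP of the pathway. At E10.5 it was at 88.5, 92.4 and 88.1 RPKM in Ctrl and at 57.4, 50.8 and 59.4 RPKM in cKO. It fell 1.61-fold (log2 fold change −0.68 ± 0.11, adjusted p = 0.022) and passed under all 4 scalings compared, with an adjusted p of 0.017 after median-ratio scaling, but not without Ctrl replicate 3 (0.090), cKO replicate 1 (0.065) or cKO replicate 2 (0.084). In adults it was at 28.9, 28.7 and 28.6 RPKM in Ctrl and at 72.9, 57.9 and 57.1 RPKM in icKO. There it rose 2.18-fold (1.11 ± 0.10, adjusted p = 1.1e-05; 0.55, adjusted p = 0.00079 after median-ratio scaling).

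Phosphoglycerate mutase and enolase each have a widely expressed gene, Pgam1 and Eno1, and a muscle gene, Pgam2 and Eno3. In adults Pgam1 was at 1.650, 1.394 and 2.601 RPKM in Ctrl and at 5.51, 3.91 and 3.91 RPKM in icKO. It rose 2.36-fold (log2 fold change 1.23 ± 0.23, adjusted p = 0.0011; 0.68 after median-ratio scaling). Eno1 was at 9.79, 10.7 and 10.7 RPKM in Ctrl and at 34.1, 20.5 and 19.5 RPKM in icKO. Every icKO sample lay above Ctrl, a 2.37-fold rise (1.19 ± 0.19, adjusted p = 0.00036; 0.63 after median-ratio scaling). Pgam2 fell, from 273.8 to 293.8 RPKM in Ctrl to between 166.1 and 208.9 RPKM in icKO (−0.59 ± 0.10, adjusted p = 0.00040; −1.15 after median-ratio scaling). Eno3, by far the main enolase transcript, overlapped at 547.1 to 607.1 RPKM in Ctrl and 407.8 to 611.1 RPKM in icKO and depended on the scale (−0.27, adjusted p = 0.098 as deposited; −0.84, adjusted p = 0.0014 after median-ratio scaling).

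At E10.5 none of these mutase and enolase genes passed. Pgam1 was at 20.4, 20.3 and 19.7 RPKM in Ctrl and 14.5, 15.5 and 19.0 RPKM in cKO (adjusted p = 0.17). Eno1 was at 149.9, 166.8 and 118.2 RPKM in Ctrl and 85.6, 91.3 and 127.8 RPKM in cKO (adjusted p = 0.14). Pgam2 and Eno3 had log2 fold changes of −0.48 and −0.13.

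The abundant enzymes Aldoa, Tpi1, Gapdh and Pkm, for aldolase, triose phosphate isomerase, glyceraldehyde 3-phosphate dehydrogenase and pyruvate kinase, had adult changes that depend on the scale, with a sign that turns for all but Pkm. Aldoa, the largest member with 22.3% of the members' summed RPKM in Ctrl, was at 1133 to 1156 RPKM in Ctrl and 1297 to 1385 RPKM in icKO (log2 fold change 0.24, adjusted p = 0.012 as deposited; −0.33, adjusted p = 0.0027 after median-ratio scaling; 1.34 after quantile normalization). Tpi1 was 0.39 as deposited and −0.18 after scaling, and Gapdh 0.13 and −0.44. Pkm, at 203.8 to 232.1 RPKM in Ctrl and 319.8 to 404.1 RPKM in icKO, was positive on both scales (0.74, adjusted p = 0.00015; 0.18, adjusted p = 0.17 after scaling), and the gene-level values do not separate its splice forms. Aldoc, the brain form of aldolase, was listed at 0 in all 3 adult Ctrl samples and at 0.031 to 0.066 RPKM in icKO. At E10.5 these genes did not pass, with log2 fold changes between −0.41 for Aldoa and −0.31 for Pkm, and −0.94 ± 0.33 for Aldoc at 0.595 to 2.01 RPKM (adjusted p = 0.13). Gapdh, Aldoa, Pgam1, Eno1 and Ldha have near-identical copies in the genome, so that reads could be split between them, and their levels are uncertain to that extent. Eno1b, outside the members, was at 151.9 RPKM in E10.5 Ctrl, where Eno1 was at 145.0 RPKM. In adult Ctrl Eno1b was at 11.9 and Eno1 at 10.4 RPKM.

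Ldha encodes the subunit of lactate dehydrogenase typical of glycolytic tissue and Ldhb the subunit typical of heart. In adult cardiomyocytes Ldha rose 1.99-fold, from 210.9 to 236.0 RPKM in Ctrl to between 427.7 and 446.7 RPKM in icKO (log2 fold change 0.99 ± 0.07, adjusted p = 3.4e-06; 0.43, adjusted p = 0.0011 after median-ratio scaling). Ldhb fell 1.86-fold, from 515.6 to 566.0 RPKM to between 267.7 and 316.3 RPKM (−0.90 ± 0.09, adjusted p = 1.5e-05; −1.46 after scaling). At E10.5, where Ldha is the dominant form, it was at 472.0 to 535.1 RPKM in Ctrl and 303.3 to 376.2 RPKM in cKO, without overlap but with an adjusted p of 0.087, and Ldhb overlapped (adjusted p = 0.11).

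Slc16a3 encodes MCT4, the monocarboxylate transporter of cells that export lactate, and Slc16a1 encodes MCT1, the widely expressed carrier. In adult Ctrl Slc16a3 was at 0.158, 0.428 and 0.468 RPKM, and in icKO at 19.8, 11.9 and 11.2 RPKM. Every icKO sample lay far above Ctrl, a 40.7-fold rise that was the largest of all members (log2 fold change 5.03 ± 0.32, adjusted p = 1.6e-06; 4.53 after median-ratio scaling, 3.47 with a pseudocount of 1). Slc16a1 overlapped at 59.0 to 66.6 RPKM in Ctrl and 64.0 to 78.9 RPKM in icKO (0.23, adjusted p = 0.060 as deposited; −0.34, adjusted p = 0.0077 after scaling). At E10.5 Slc16a3 was abundant, at 36.8, 49.6 and 40.4 RPKM in Ctrl and 38.8, 37.3 and 38.5 RPKM in cKO (adjusted p = 0.56), and Slc16a1 did not pass either (adjusted p = 0.30).

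The pyruvate dehydrogenase kinases Pdk1 and Pdk2 restrain the entry of pyruvate into the citrate cycle. At E10.5 Pdk1 was at 26.3, 34.4 and 28.0 RPKM in Ctrl and at 18.0, 13.4 and 19.1 RPKM in cKO. It fell 1.76-fold (log2 fold change −0.82 ± 0.16, adjusted p = 0.027; 0.044 after median-ratio scaling), but its adjusted p was 0.052 after quantile normalization, 0.058 with scaling without the 20 most abundant genes, 0.055 with no RPKM filter and up to 0.10 without single libraries. Pdk2 was at 5.42, 3.14 and 5.78 RPKM in Ctrl and 2.95, 2.36 and 2.19 RPKM in cKO, without overlap, at an adjusted p of 0.065. In adults Pdk2 was at 140.6, 157.4 and 147.9 RPKM in Ctrl and at 59.7, 66.8 and 68.6 RPKM in icKO. It fell 2.29-fold (−1.19 ± 0.08, adjusted p = 2.2e-06; −1.76 after scaling), while Pdk1, at 27.6 to 35.0 RPKM in Ctrl and 31.4 to 33.7 RPKM in icKO, overlapped (0.06, adjusted p = 0.56 as deposited; −0.50, adjusted p = 0.0019 after scaling).

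Of the 4 glycogen members, 3 fell in adult cardiomyocytes as deposited and none rose, where 18.1% of all genes fell and 60.6% rose. Pygb, the brain form of glycogen phosphorylase, was at 208.5, 227.7 and 205.9 RPKM in Ctrl and at 68.0, 65.2 and 71.4 RPKM in icKO. It fell 3.14-fold (log2 fold change −1.65 ± 0.08, adjusted p = 3.7e-07; −2.21 after median-ratio scaling). Gys1, muscle glycogen synthase, fell from 35.5 to 43.5 RPKM to between 23.3 and 24.1 RPKM (−0.72 ± 0.09, adjusted p = 7.5e-05; −1.29 after scaling). Pygm, the muscle phosphorylase, was at 339.7 to 358.6 RPKM in Ctrl and 240.5 to 298.5 RPKM in icKO and passed as deposited (−0.41, adjusted p = 0.0032) but not after quantile normalization (−0.12, adjusted p = 0.32). Phka1, a regulatory subunit of phosphorylase kinase, overlapped (0.12, adjusted p = 0.40 as deposited; −0.44, adjusted p = 0.0061 after scaling). At E10.5 Pygb was at 41.4, 31.4 and 33.2 RPKM in Ctrl and 29.7, 28.5 and 35.4 RPKM in cKO, and none of the 4 glycogen members passed, with log2 fold changes between −0.31 for Gys1 and 0.23 for Pygm.

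The exchange of isoenzymes was then read as the share of one gene in the summed RPKM of its family within each sample, for 11 families. A family held only members of the list, so other genes such as Pdk3, Pdk4 and Eno1b were not counted. With Eno1b counted, the shares of Eno3 among enolases would be lower. In adult cardiomyocytes Pfkm made up 88.5%, 90.2% and 88.5% of phosphofructokinase in Ctrl and 43.4%, 49.9% and 48.7% in icKO. The mean difference was −41.7 percentage points, and the share of Pfkp went from 3.11% to 39.7%. Ldhb took 72.7%, 71.1% and 68.6% of lactate dehydrogenase in Ctrl and 37.5%, 42.5% and 38.8% in icKO, and Hk2 took 66.9%, 68.6% and 62.1% of hexokinase in Ctrl and 40.9%, 38.0% and 39.1% in icKO. So the main lactate dehydrogenase and hexokinase genes of Ctrl were the lesser ones in icKO. Smaller differences in the same direction were found for Pdk2 among Pdk1 and Pdk2 (82.7% ± 1.42 to 66.6% ± 1.67, SD, n = 3). The same held for Slc16a1 (99.5% ± 0.24 to 83.9% ± 3.71) and Slc2a4 (97.2% ± 0.51 to 86.2% ± 3.18). Pdk4, not counted, was more abundant than Pdk2 in adult Ctrl (421.0 ± 157.5 RPKM) and at 80.1 ± 28.2 RPKM in icKO. It fell further than Pdk2 (log2 fold change −2.38 against −1.19). With Pdk4 counted, the mean share of Pdk2 is higher in icKO than in Ctrl, so the direction for Pdk2 turns. The lowest adult share was 92.3% for Eno3 and 96.8% for Pgam2.

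The share was higher in icKO in the glycogen phosphorylase and PFKFB families. Pygm went from 61.8% ± 1.84 to 79.3% ± 1.38 of glycogen phosphorylase, and Pfkfb2 from 65.2% ± 7.30 to 87.2% ± 1.56 of the PFKFB genes, while Pfkfb1 went from 32.2% to 3.96%. In all 11 families the adult groups did not overlap, 9 with a lower and 2 with a higher share in icKO. The aldolase share differed by only 0.0035 percentage points. Groups without overlap were common in the adult samples. Taken as single genes, 62.0% of all genes tested were higher and 18.9% lower without overlap. For the shares, the exact permutation test gave a two-sided p of 0.1 in each family, the smallest the design allows, and 0.1 after adjustment over the 11 families.

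At E10.5 the shares moved little. Groups did not overlap in 3 of 11 families, each at an exact two-sided permutation p of 0.1, adjusted 0.37. Taken as single genes, 22.6% of all genes tested were lower and 6.50% higher without overlap. Slc2a4 took 3.17%, 1.63% and 2.73% in Ctrl and 8.30%, 9.56% and 5.49% in cKO, with Slc2a1 as the gene that fell. Pfkfb2 went from 32.3% ± 3.72 to 25.2% ± 1.78, and Pygm from 50.7% ± 3.35 to 57.7% ± 3.01. Phosphofructokinase, lactate dehydrogenase and hexokinase shares overlapped, with a mean difference of −2.28 points for Pfkm, 0.02 points for Ldhb and −0.69 points for Hk2.

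Set beside E10.5 Ctrl hearts, the adult icKO shares lay on the embryonic side of adult Ctrl in 9 of 11 families. That count includes Pdk2, whose share leaves out Pdk4 and also Pdk3, at 40.0 RPKM in E10.5 Ctrl. With Pdk3 and Pdk4 counted, the mean Pdk2 share in icKO moves away from the embryonic one. Pfkm was at 24.2% in E10.5 Ctrl, 89.1% in adult Ctrl and 47.4% in icKO. Ldhb was at 10.7%, 70.8% and 39.6%, Hk2 at 22.01%, 65.9% and 39.3%, and Slc16a1 at 37.7%, 99.5% and 83.9%. Pygm and Pfkfb2 moved away from the embryonic share. The 9 include aldolase, which went from 100% to 99.997% in adults and from 100% could only fall. Slc2a4, Pgam2, Eno3 and Slc16a1 also had little room to rise, at 97.2% to 99.5% in adult Ctrl. The E10.5 samples are whole hearts and the adult samples isolated cardiomyocytes, so this order is a description of shares and was not tested.

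**Figure D3:**
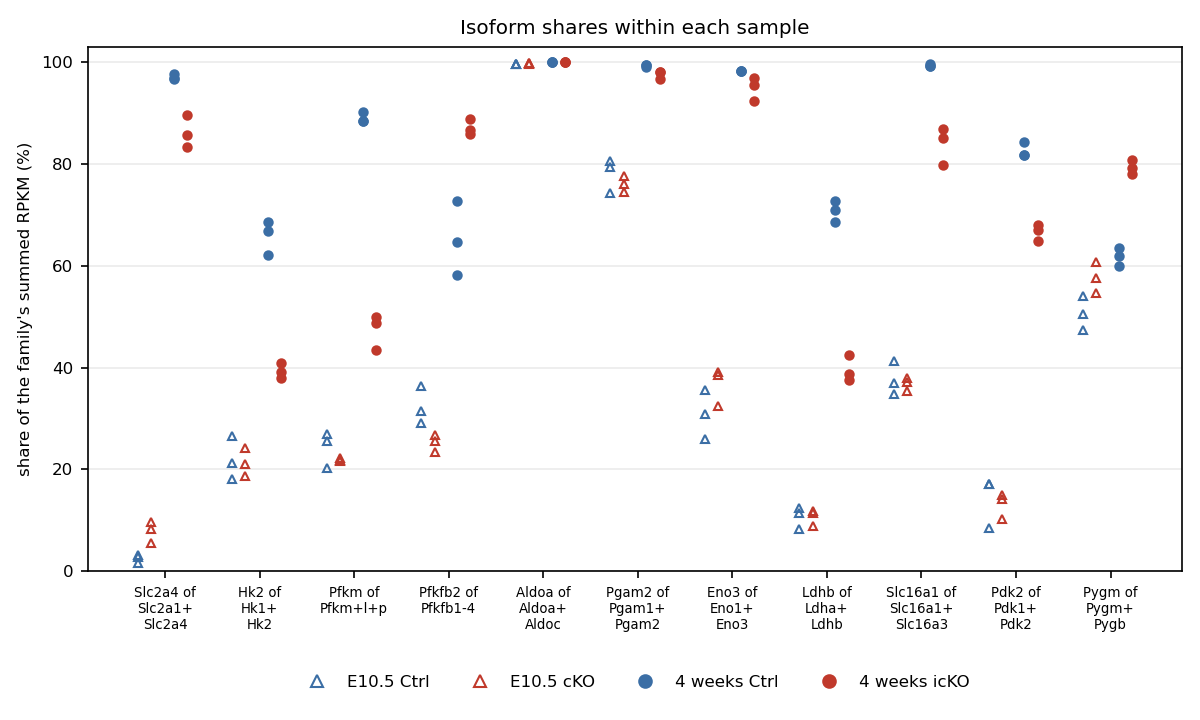
Share of one gene (named first) in the summed RPKM of the members of its family, in percent, for each of the 12 samples. Open triangles are E10.5 and filled circles 4 weeks, blue Ctrl and red knockout. Adult icKO samples lie below adult Ctrl for Hk2, Pfkm, Ldhb and Pdk2, and above for Pfkfb2 and Pygm, while most E10.5 groups overlap. The Pdk2 share is of Pdk1 and Pdk2 alone, and its adult direction turns with Pdk4 counted.

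Whether the knockout acted differently at the 2 stages was tested as a contrast of both effects in a limma fit of all 12 samples. Of 29 members tested, 23 differed at an adjusted p under 0.05, 16 with a higher (55.2%) and 7 with a lower (24.1%) adult effect, where 59.4% and 9.29% of the 8909 genes tested did. After median-ratio scaling 21 differed (all genes in either direction 52.9%) and the balance turned, with 8 higher (27.6%) and 13 lower (44.8%) against 27.2% and 25.7% of all genes, and 15 did so in the same direction on both scales. Slc2a1 (difference 2.595 ± 0.31 on the log2 scale, adjusted p = 8.9e-06; 1.92 after scaling) and Pgk1 (1.80 ± 0.15, adjusted p = 4.9e-07; 1.11 after scaling) had effects of opposite sign that passed within each stage. Slc16a3 (5.16 ± 0.38) and Pfkp (3.33 ± 0.21) rose in adults and overlapped at E10.5, and Pfkfb1 (−3.91 ± 0.36), Slc2a4 (−1.54 ± 0.20) and Pygb (−1.47 ± 0.17) fell in adults.

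**Figure D4:**
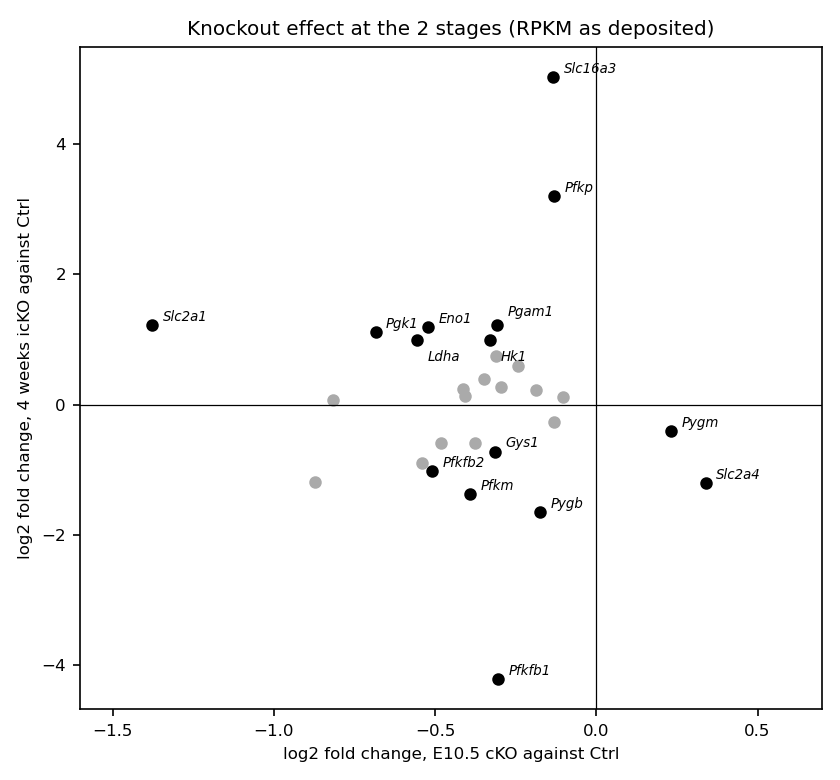
Log2 fold change of 29 members at E10.5 (cKO against Ctrl, horizontal) and at 4 weeks (icKO against Ctrl, vertical), RPKM as deposited. Black, named points are the 15 members whose effects differed between stages on both scales; Slc2a1 (−1.38 and 1.22) lies alone at the upper left.

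The wider pathway, 79 genes listed by function, held 63 genes tested at E10.5 and 62 at 4 weeks. At E10.5 4 were lower (6.35%, all genes 3.45%) and 0 higher (all genes 0.864%) with limma. At an unadjusted p under 0.05 of this fit there were 19 lower and 1 higher, against 19.2% and 4.39% of all genes. Without Ctrl replicate 3, cKO replicate 1 or cKO replicate 2 the count of lower genes was 0, and without Ctrl replicate 1 it was 1. Of all genes, 0.175%, 0.450%, 0.358% and 0.451% were lower in these fits, in that order. With no RPKM filter the count was 0 as well, with 0.676% of all genes lower. Median-ratio scaling gave 2 lower (3.17%) and 1 higher (1.59%), against 2.56% and 2.49% of all genes. Quantile normalization gave 2 and 2, with 2.38% of all genes lower. The 4 were Gyg, glycogenin, the primer of glycogen (345.8 ± 27.9 to 196.9 ± 10.4 RPKM, SD, n = 3; log2 fold change −0.81, adjusted p = 0.024), Hif1a, the oxygen-regulated subunit of hypoxia-inducible factor (55.1 ± 6.51 to 37.8 ± 0.86 RPKM; −0.54, adjusted p = 0.040), Arrdc4, an arrestin relative that lowers glucose uptake (−0.77, adjusted p = 0.040), and Gapdhs, the sperm form of Gapdh (1.72 ± 0.47 to 0.56 ± 0.15 RPKM; −1.45, adjusted p = 0.045). Gyg and Hif1a passed under all 4 scalings, Arrdc4 and Gapdhs as deposited alone (adjusted p = 0.055 and 0.063 after median-ratio scaling). Epas1, another oxygen-regulated subunit of hypoxia-inducible factor, is named after its values were seen. It was at 4.46, 3.97 and 3.96 RPKM in Ctrl and 6.31, 9.18 and 5.52 RPKM in cKO, without overlap (log2 fold change 0.72, adjusted p = 0.058 as deposited; 0.84, adjusted p = 0.042 after median-ratio scaling).

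In adults 22 of 62 wider genes (35.5%) were higher and 27 (43.5%) lower as deposited, where 60.6% and 18.1% of all genes did so. After median-ratio scaling 12 (19.4%) were higher and 38 (61.3%) lower, against 33.6% and 34.6% of all genes. The counts by group that follow are as deposited and then after this scaling, and read against those shares. The genes named here are up to 3 per group with the smallest adjusted p, and all passed in the same direction under the 4 scalings. In glucose transport, 3 of 5 tested fell and 1 rose (3 and 0 after scaling). Txnip, which promotes removal of glucose transporters from the membrane, went from 313.9 ± 52.6 to 38.5 ± 3.56 RPKM (log2 fold change −3.01 ± 0.13, adjusted p = 2.7e-07). Slc2a12, encoding GLUT12, changed by −3.17 and Tbc1d4, which holds GLUT4 inside the cell, by −1.38. Among 7 other glycolytic enzymes, 3 rose and 3 fell (3 and 4 after scaling). Adpgk, an ADP-dependent glucokinase, rose by 1.98 and Minpp1, a phosphatase that also acts on 2,3-bisphosphoglycerate, by 1.63, while Fbp2, muscle fructose bisphosphatase, went from 12.3 ± 1.15 to 1.34 ± 0.85 RPKM (−3.26 ± 0.33).

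Around pyruvate, 9 of 13 genes tested fell and 2 rose (11 and 0 after scaling). Pdp2, a phosphatase that reactivates pyruvate dehydrogenase, went from 12.5 ± 0.76 to 1.58 ± 0.41 RPKM (log2 fold change −2.93 ± 0.18, adjusted p = 1.3e-06), Pdk4, an inhibitory kinase of the same enzyme, from 421.0 ± 157.5 to 80.1 ± 28.2 RPKM (−2.38 ± 0.29), and Dld, the E3 subunit of the complex, by −1.07. Of 21 glycogen genes tested, 8 rose and 7 fell (7 and 13 after scaling). Phkg1, the muscle catalytic subunit of phosphorylase kinase, went from 7.57 ± 1.25 to 0.62 ± 0.09 RPKM (−3.41 ± 0.17, adjusted p = 5.0e-07). Gyg rose from 58.3 ± 4.06 to 146.0 ± 3.34 RPKM (1.33 ± 0.08; 0.76 after median-ratio scaling), and Gsk3b, a kinase that inhibits glycogen synthase, rose by 1.46 (0.90 after scaling, no longer beyond 1). Of 16 regulators, 8 rose and 5 fell, which turned to 2 and 7 after scaling. Named by their adjusted p are Egln1, the prolyl hydroxylase that marks Hif1a for destruction (105.6 ± 3.92 to 46.3 ± 2.52 RPKM; −1.19 ± 0.08, adjusted p = 1.4e-06), Arnt, the partner of Hif1a (0.84; 0.28 after scaling), and Klf15, a factor of cardiac metabolic genes (−1.001).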

How the data were processed

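Total RNA depleted of ribosomal RNA was sequenced from 12 samples, 3 per group. The authors trimmed reads with cutadapt 2.6, aligned them to mm10 with STAR 2.5.3a and used HOMER 4.11.1 and DESeq2 1.12.4, per the processing notes. The deposited values are RPKM per gene, which the authors normalized to library size and gene length, in 1 table per stage. The tables also hold the authors' own fold changes and false discovery rates, which were not used. In the E10.5 table the knockout columns carry the prefix icKO.

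From RPKM, limma 3.58.1 (R 4.3.3; lmFit, eBayes with trend) was fitted to log2(RPKM + 0.1) for all genes with a mean above 1 RPKM in a table, with Benjamini-Hochberg adjustment over all genes tested; each adjusted p is from this fit. A fold change on this scale understates that of low genes. Called genes also had a log2 fold change beyond 1. Differences between stages were a contrast over 12 samples. Shares and sums were compared with exact permutation tests (scipy 1.17.1), two-sided. Alternatives were other pseudocounts, RPKM minimums and scalings, eBayes without a trend, a replicate block and leaving out each sample. The fit was tested on simulated data. All members are accounted for, with every sample's value for called ones; of the wider list, up to 3 genes per group with the smallest adjusted p are named. Members and lists were chosen with earlier results of these data known.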

Additional observations from a re-analysis of the deposited data

Results flagged for a closer look

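The effect of the knockout differed between E10.5 and 4 weeks in 23 of 29 members tested, by the limma contrast of both effects at an adjusted p under 0.05. Groups of 3 samples were not examined for single outlying samples. Each value here is the effect at 4 weeks minus the effect at E10.5, on the log2 scale of RPKM as deposited, and stage cannot be told apart from the Cre line, or whole hearts from isolated cardiomyocytes.

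In 15 members the difference also passed after median-ratio scaling. It was positive for Slc16a3 (5.16), Pfkp (3.33), Slc2a1 (2.595), Pgk1 (1.80), Eno1 (1.71), Ldha (1.55), Pgam1 (1.53) and Hk1 (1.32). It was negative for Pfkfb1 (−3.91), Slc2a4 (−1.54), Pygb (−1.47), Pfkm (−0.99), Pygm (−0.64), Pfkfb2 (−0.51) and Gys1 (−0.41).

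In the other 8 the difference passed as deposited but not after median-ratio scaling. With the scaled value second, these were Pkm (1.05, 0.36), Pdk1 (0.88, 0.20), Gpi1 (0.84, 0.15), Tpi1 (0.74, 0.05), Aldoa (0.65, −0.04), Pfkl (0.56, −0.13), Gapdh (0.53, −0.15) and Slc16a1 (0.41, −0.27).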

How the results depend on the processing

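Median-ratio scaling gave 2 adult members called higher and 10 called lower in place of 6 and 6. Of all 9517 genes tested, 1053 were then called higher and 1511 lower, in place of 2668 and 804. Members lower at an adjusted p under 0.05 numbered 17 in place of 11, where 34.6% of all genes were lower in place of 18.1%. Scaling without the 20 most abundant genes gave 2 called higher, with 1851 of all genes. Adult log2 fold changes changed sign for Aldoa (−0.33 with median-ratio scaling, −0.0041 without the 20 most abundant genes), Tpi1 (−0.18), Gapdh (−0.44) and Slc16a1 (−0.34) with median-ratio scaling, and, with median-ratio scaling and quantile normalization in turn, Pdk1 (−0.50, −0.42) and Phka1 (−0.44, −0.45). Differences between stages changed sign, in the same order, for Pfkl (−0.13, −0.082), Phka1 (−0.46, −0.45) and Slc16a1 (−0.27, −0.13, and −0.00382 without the 20 most abundant genes), and with median-ratio scaling for Aldoa (−0.035) and Gapdh (−0.15). The cause of each was not tested. With 0.1 RPKM added, the adult aldolase share differed by −0.00216 points in place of −0.00349. Leaving out each sample in turn, E10.5 members numbered 0 to 2 called lower and 0 to 7 lower at an adjusted p under 0.05, with 1 sample fewer in the fit. Over all genes, 18 to 102 were called lower and 0.175% to 5.35% were lower in these fits.

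Same-numbered samples did not deviate together at E10.5 (correlations −0.07 to 0.10) and did weakly at 4 weeks (0.04 to 0.15), so the numbers were not taken as pairs. With the replicate block, 4 members were lower at E10.5 in place of 3 (all genes 2.79%). At 4 weeks 13 were higher in place of 12 (5771 of all 9517 genes), and 23 differed between stages (5257 higher and 817 lower of all 8909 genes). In the wider list 0 were lower at E10.5 in place of 4. Low RPKM limits Pfkfb3, Pfkfb4 and Aldoc in adults.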
